A study of Mus musculus with 34 samples.

Results

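The genes described here are 39 protein-coding genes of mouse chromosome 16 that lie inside the segment duplicated in Dp16 mice. They were chosen by name as the segment's genes with roles in RNA processing, protein quality control, metabolism and related functions. The rule used position and function and no measured value, although earlier results of these data were known when the genes were listed. All 39 were found among the 55385 genes in the files, and all 39 passed the filter on low counts. They also all passed when that filter saw only the 19 animals without the extra copy. The segment was taken to run from Lipi to Zbtb21 (chromosome 16, 75540514 to 97962622, GRCm38, 22.4 Mb). It holds 384 genes in the files, of which 107 were tested, so that 68 other segment genes and 17411 genes outside it served as comparison.

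Expression was measured by sequencing poly(A) RNA from the hippocampus of 34 mice aged 6 months. Wild-type C57BL/6J mice (WT) have the usual 2 copies of the segment. Dp16 mice carry it as a tandem duplication on 1 chromosome 16, which makes 3 copies, and serve to model trisomy 21. The 5xFAD line expresses human transgenes from the neuronal Thy1 promoter and develops amyloid plaques. 5xFAD-Dp16 mice have the duplication and the transgenes. Each genotype received daily oral gavage for a month, either with tofacitinib at 15 mg/kg, an inhibitor of Janus kinases, or with the 0.5% methylcellulose vehicle alone (sham). There were 5 WT mice on sham and 5 on tofacitinib, 3 and 5 Dp16 mice, 4 and 5 5xFAD mice, and 3 and 4 5xFAD-Dp16 mice, in that order, so 15 animals had the extra copy and 19 did not. Of these, 2 and 2 WT, 2 and 3 Dp16, 1 and 2 5xFAD, and 2 and 2 5xFAD-Dp16 mice were female. Sex was a term of the main fit, while levels of single animals are not adjusted for it. The labels name the strain for WT only.

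A gene present in 3 copies instead of 2 is transcribed at 1.5-fold the usual level, 0.58 on the log2 scale, if each copy is equally active. A gene that stays below this is often called dosage-compensated, and fully so where it stays at the usual level. Many products of these genes work in complexes of fixed composition, such as the CCT chaperonin, the mitochondrial ribosome and the proteasome, whose other subunits are made from other chromosomes. Others are splicing and transcription factors, enzymes of purine and biotin metabolism, ubiquitin-pathway enzymes, junction proteins of vessels and matrix proteases.

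Promoter sequence is shown for 5 genes on which the results turn: Scaf4 and Son, whose rise stayed below 1.5-fold, D16Ertd472e, whose rise stayed above it, Gart, the head-to-head neighbour of Son, and Samsn1, the gene that differed with the 5xFAD transgenes. Each is the 250 bases before a RefSeq start site (GRCm38.p6), written 5′ to 3′ on the gene's strand. By the GENCODE annotation used for gene positions, Son starts at 91647506 and Samsn1, on the minus strand, at 76022281. The windows of Son and Samsn1 therefore lie inside the gene by that annotation, and motifs were read at the RefSeq starts alone. Capitals mark SP1 boxes (GGGCGG) and CCAAT boxes (CCAAT) on either strand, and, in Samsn1, the PU.1 motif GAGGAAGT on either strand. The windows are chr16:90284504-90284753 (minus strand) for Scaf4, chr16:91647574-91647823 (plus) for Son, chr16:91646973-91647222 (minus) for Gart, chr16:78576689-78576938 (minus) for D16Ertd472e and chr16:75909267-75909516 (minus) for Samsn1.
Scaf4: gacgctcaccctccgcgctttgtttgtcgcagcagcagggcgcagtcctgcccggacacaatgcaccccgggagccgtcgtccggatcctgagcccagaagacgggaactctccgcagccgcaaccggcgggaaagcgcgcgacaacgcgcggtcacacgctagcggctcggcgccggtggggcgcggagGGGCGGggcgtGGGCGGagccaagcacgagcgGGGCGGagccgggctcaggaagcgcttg
Son: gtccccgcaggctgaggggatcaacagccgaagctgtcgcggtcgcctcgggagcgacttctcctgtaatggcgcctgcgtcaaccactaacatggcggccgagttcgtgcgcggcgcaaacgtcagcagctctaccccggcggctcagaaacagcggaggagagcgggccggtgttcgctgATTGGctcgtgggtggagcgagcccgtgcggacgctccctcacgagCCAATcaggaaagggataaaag
Gart: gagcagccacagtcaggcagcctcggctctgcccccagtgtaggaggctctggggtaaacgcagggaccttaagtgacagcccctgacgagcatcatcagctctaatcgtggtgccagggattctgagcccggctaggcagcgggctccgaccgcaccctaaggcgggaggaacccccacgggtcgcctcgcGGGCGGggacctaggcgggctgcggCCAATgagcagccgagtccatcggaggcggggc
D16Ertd472e: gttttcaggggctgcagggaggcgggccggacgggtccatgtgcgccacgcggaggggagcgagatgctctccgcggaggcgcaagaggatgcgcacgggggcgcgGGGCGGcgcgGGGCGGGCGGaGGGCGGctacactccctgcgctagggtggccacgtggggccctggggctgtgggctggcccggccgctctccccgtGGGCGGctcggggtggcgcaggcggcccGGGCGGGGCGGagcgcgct
Samsn1: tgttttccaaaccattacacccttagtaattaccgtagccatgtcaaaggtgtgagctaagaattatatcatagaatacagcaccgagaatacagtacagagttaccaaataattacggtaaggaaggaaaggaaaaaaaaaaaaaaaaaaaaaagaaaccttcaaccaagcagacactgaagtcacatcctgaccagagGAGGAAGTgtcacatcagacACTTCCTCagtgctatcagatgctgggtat
A RefSeq entry was found for 32 of the 39 genes. Promoters of these genes were rich in G and C, with a median of 66.6% against 52.4% over all 32851 promoters, and held a median of 23 CpG pairs against 6. The SP1 box was in 18 of the 32 genes (32.7% of all promoters), the CCAAT box in 10 (33.8%), the ETS motif CCGGAAG in 6 (6.91%) and the TATAAA box in 1, Adamts1 (12.4%). The palindromic NRF1 motif was in 5 genes (0.782% of all promoters): Mis18a, Mrpl39, Paxbp1, Pigp and Ttc3. The windows of Pigp and Ttc3 overlap on opposite strands. The PU.1 motif was in Samsn1 alone (2.44%), where it occurs on each strand, and the interferon-stimulated response element (ISRE) was in none (2.98%). D16Ertd472e holds 7 SP1 boxes, of which 2 pairs overlap, Scaf4 holds 3 and Son none. These matches are descriptions of the sequence.

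Libraries held 14.9 to 21.1 M counts. In 31 of 34 libraries the mean level of 12 hippocampal neuron markers was 5.44 to 6.43 log2 CPM (a gene's counts scaled to a library of 1 M). It was 3.59 to 3.71 in the other 3, which are WT tofacitinib 3, 5xFAD tofacitinib 2 and 5xFAD-Dp16 sham 4, and these had more striatal or thalamic markers. Another library, 5xFAD-Dp16 tofacitinib 1, had raised thalamic and striatal markers at 5.30 and 5.22. Several results are given with and without them. In the mean effect of the segment 1 astrocyte marker was lower, 1 oligodendrocyte marker was higher and no other marker of 11 lists was called. The list medians were -0.74 for striatum, 0.13 for thalamus, 0.03 for hippocampal neurons, -0.16 for choroid plexus, 0.24 for mural cells, 0.17 for oligodendrocytes, 0.02 for astrocytes and -0.03 for neurons. They were -0.16 for microglia and -0.22 for plaque-associated microglia. In bulk tissue a change in the number of cells that express a gene and a change in RNA per cell cannot be told apart.

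All 39 genes were above the comparison group in each of the 4 comparisons of animals with and without the segment copy. The same held for 73.5% of the 68 other segment genes and for 9.7% of all genes. Here and below, the 39 are all protein-coding, while the other segment genes and all genes were of any gene type. Past the threshold (adjusted p under 0.05, edgeR quasi-likelihood test, adjusted over all 17518 genes) were 16 of 39 in Dp16 against WT with sham (0.245% of all genes were called higher there). With tofacitinib 14 passed in Dp16 against WT (0.257%). In 5xFAD-Dp16 against 5xFAD, 14 passed with sham (0.251%) and 13 with tofacitinib (0.206%). None of the 39 was lower in any of them, where 0.0628%, 0.0114%, 0.0171% and 0.0114% of all genes were. The median log2 fold changes were 0.62, 0.58, 0.64 and 0.55, in that order. The 4 comparisons share no animals, although the spread was estimated from all of them together, and p-values measure the spread between these animals. Fitted by edgeR on their own groups alone, both comparisons in the 5xFAD background called 0 of the 39 and 0 of all genes (31 and 27 of the 39 at an unadjusted p under 0.05). DESeq2, which was fitted to all groups and not to the compared groups alone, called 19 and 16. The share of all genes at that unadjusted p in the fits on own groups is not given here. In the edgeR fit to all groups it held for 1938 and 801 of the 17411 genes outside the segment. DESeq2 calls over all genes are given in the last paragraph. Without Dp16 sham 2 the count in Dp16 against WT with sham was 9, without Dp16 sham 1 or 3 it was 10, and without 5xFAD-Dp16 sham 4 that in 5xFAD-Dp16 against 5xFAD with sham was 8.

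Over the mean of the 4 comparisons 34 of the 39 genes rose and none fell (0.902% of all genes were called higher and 0.48% lower), with a median log2 fold change of 0.59. The middle 50% of the genes lay between 0.52 and 0.68. For the other 68 segment genes the median was 0.54 and 37 rose, and for genes outside the segment it was -0.0036. The genes that did not pass were Ripk4, Samsn1, Adamts5, Slc5a3 and Setd4. The 95% interval of the mean effect, not adjusted for the number of genes, was read against 0 and 1.5-fold. Son and Scaf4 rose with an interval wholly below 1.5-fold (2 of 39, against 7.35% of the other segment genes and 3.53% of all genes). The interval of 31 genes held 1.5-fold (83.8% of the others and 19.2% of all genes), and 1 of these, Setd4, also held 0 (27.9% of the others and 87.2% of all genes had an interval that held 0). The interval lay above 0 for 38 of the 39 genes, against 72.1% of the others and 6.68% of all genes. It was wholly above 1.5-fold for 6 genes (4.41% of the others and 0.171% of all genes): Sh3bgr, Cxadr, C2cd2, D16Ertd472e, Jam2 and Tmem50b.

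**Figure D1:**
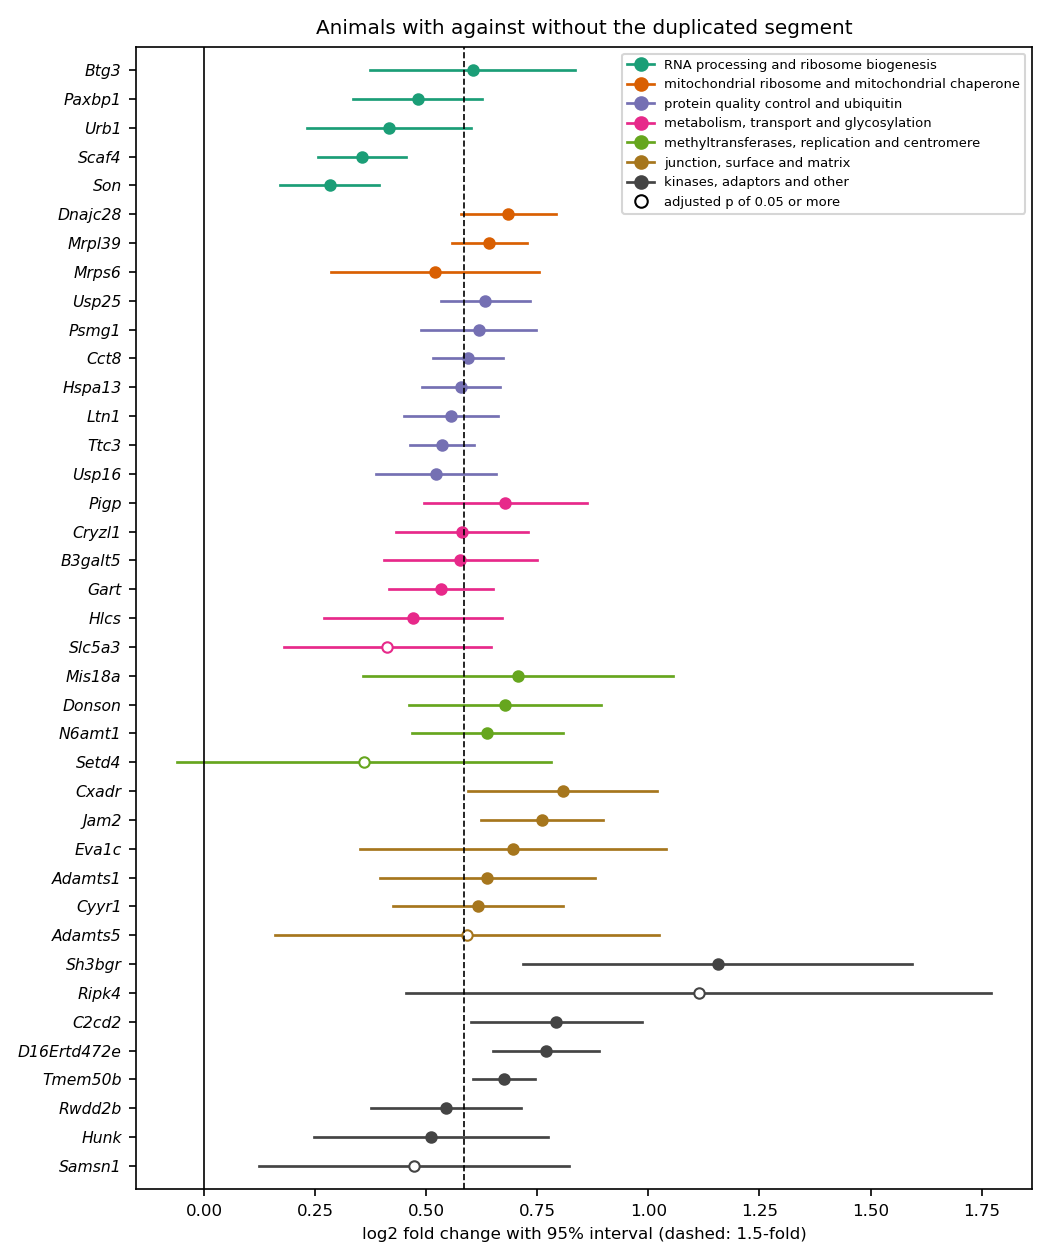
Mean log2 fold change of each of the 39 genes over the 4 comparisons (x axis) with its 95% interval, for 15 animals with and 19 without the duplicated segment, coloured by function; the dashed line is 1.5-fold and open circles are the 5 genes with an adjusted p of 0.05 or more. The intervals of Son and Scaf4 end to the left of the dashed line, and that of Setd4 crosses 0.

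How far the animals separated was also read from single values. Every animal with the copy lay above every animal without it for 12 genes (0.148% of all genes do so): Hspa13, Usp25, D16Ertd472e, Mrpl39, Jam2, Ltn1, Cct8, Tmem50b, Dnajc28, Gart, Ttc3 and Psmg1. Within single comparisons the groups did not overlap for 30 genes in Dp16 against WT with sham (4.62% of all genes) and 26 with tofacitinib (0.976%). In 5xFAD-Dp16 against 5xFAD they did not overlap for 29 genes with sham (4.52%) and 22 with tofacitinib (0.868%). Past the threshold in all 4 comparisons were 9 genes (16.2% of the other segment genes and 0.12% of all genes), while 18 passed in none of the 4 singly. Of the 9, Hspa13, Usp25, Mrpl39, Cct8, Tmem50b, Dnajc28 and Ttc3 kept all 4 calls in every refit without 1 library, and Ltn1 and D16Ertd472e did not.

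**Figure D2:**
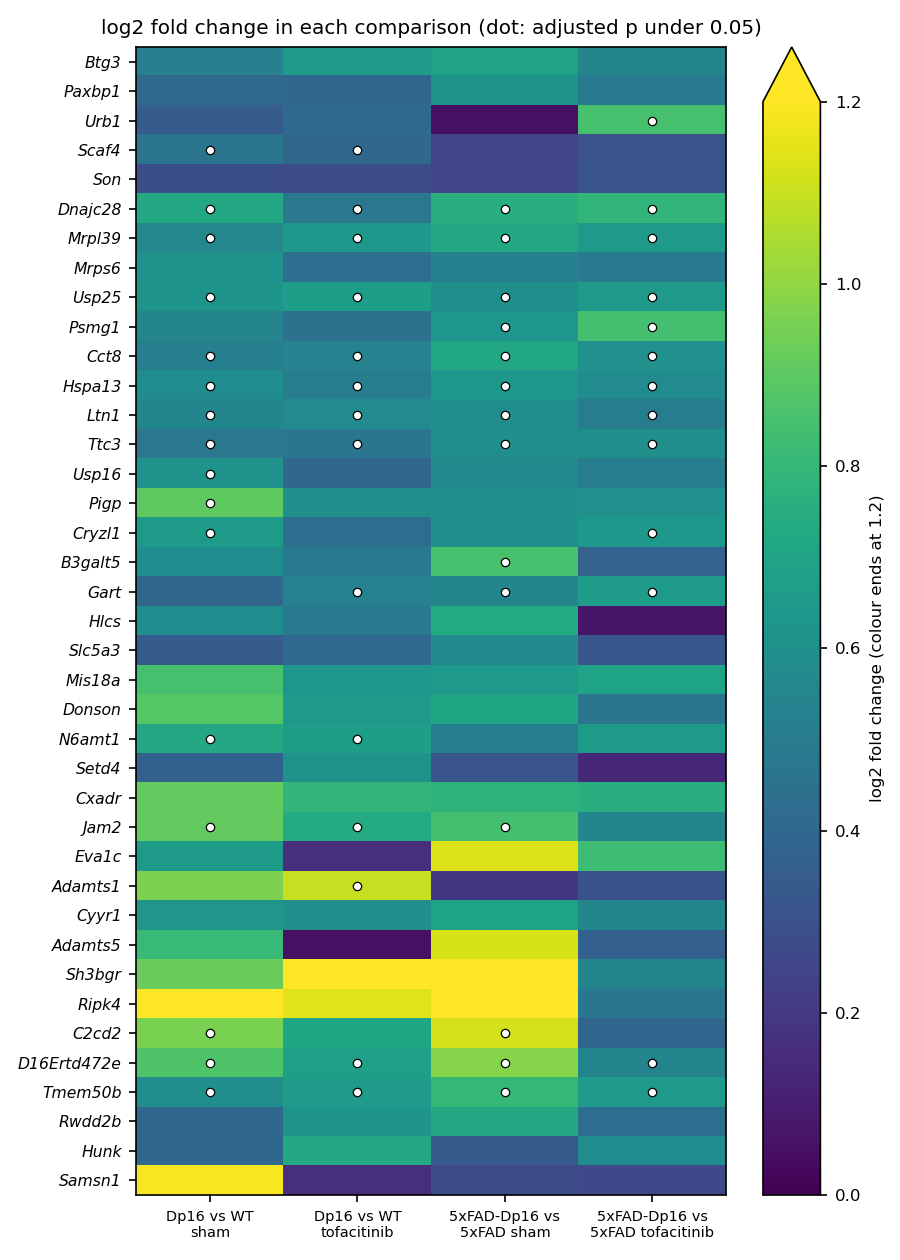
log2 fold change of each gene (rows) in the 4 comparisons of animals with and without the segment copy (columns), as colour, with a dot where the adjusted p was under 0.05. Rows with 4 dots are the 9 genes called in every comparison, and the darkest cells are Urb1, Adamts5, Hlcs and Setd4 in 1 comparison each.

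Protein quality control genes were the most uniform group: all 7 rose in the mean effect, within a range of 0.52 to 0.63. Cct8 encodes a subunit of the CCT chaperonin that folds actin and tubulin (chromosome 16, 87483326 to 87495873). Its level was 158, 151, 165, 162 and 159 CPM in the 5 WT sham animals and 229, 227 and 225 CPM in the 3 Dp16 sham animals, and no animal with the copy was below 206 CPM. The mean log2 fold change was 0.59 (SE 0.039, adjusted p = 2.92e-12). Ttc3, an E3 ubiquitin ligase, was the most abundant of the 39 per length at 76.3 ± 3.67 RPKM in WT sham animals (SD, n = 5). It read 826 to 994 CPM without the copy (median 886) and 1193 to 1413 CPM with it (median 1288), and rose by 0.53 (SE 0.035).

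The other 5 genes of the group covered steps from folding to degradation. Ltn1 encodes Listerin, the ligase that marks unfinished chains on stalled ribosomes, and went from a median of 34.2 CPM (27.4 to 42.4) to 51.2 CPM (46.1 to 59.1). Psmg1, a chaperone of 20S proteasome assembly, went from 12.4 CPM (9.27 to 15.0) to 18.9 CPM (15.9 to 24.3). Neither pair of ranges overlaps. The deubiquitinase Usp25 rose by 0.63 (SE 0.049), Usp16, which acts on histone H2A, by 0.52 (SE 0.066), and the microsomal chaperone Hspa13 by 0.58 (SE 0.043). Hspa13, Usp25, Ltn1, Cct8 and Ttc3 passed in all 4 comparisons, Psmg1 in both comparisons in the 5xFAD background and Usp16 in Dp16 against WT with sham. The Psmg1 call with sham was kept in 3 of 7 refits without 1 library and lost without the 3 libraries low in hippocampal markers (0.61, adjusted p = 0.214) and without 5xFAD-Dp16 sham 4 alone (adjusted p = 0.314). Its call with tofacitinib was kept in 9 of 9 refits, and the Usp16 call in 1 of 8.

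RNA processing and ribosome biogenesis genes all rose too (5 of 5), with the smallest group median of the 39 genes at 0.42. Son, a large nuclear-speckle protein needed for splicing of weak introns (chromosome 16, 91647506 to 91679221), rose by 0.28, which is 1.22-fold with an interval of 1.13 to 1.31 (adjusted p = 0.00233). It was at 199.9, 188, 142, 191 and 202 CPM in WT sham and 244, 224 and 215 CPM in Dp16 sham animals. Its 4 single comparisons gave 0.29, 0.28, 0.25 and 0.31, none past the threshold (smallest adjusted p 0.411). Of 15 animals with the copy, 12 lay above the highest without it (212 CPM).

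Scaf4, which binds the tail of RNA polymerase II and acts in transcript termination (chromosome 16, 90225680 to 90284503), rose by 0.36, or 1.28-fold (interval 1.19 to 1.37, adjusted p = 1.25e-05). WT sham animals had 28.6, 34.6, 29.3, 29.4 and 30.0 CPM and Dp16 sham animals 46.2, 40.5 and 38.9 CPM. In 5xFAD sham animals it was at 34.5, 37.7, 35.8 and 32.3 CPM against 42.8, 43.6 and 39.1 CPM in 5xFAD-Dp16 sham animals. The groups did not overlap in either case. Scaf4 passed in both Dp16 against WT comparisons (0.46 and 0.40) and not in the 5xFAD backgrounds (0.25 and 0.31). These calls were kept in 1 of 8 refits with sham (highest adjusted p 0.315, without Dp16 sham 1) and 4 of 10 with tofacitinib (0.0982, without Dp16 tofacitinib 5), and both were lost with no filter on low counts and with the compared groups fitted alone. The difference between backgrounds was -0.15 and did not pass. The intervals of Son and Scaf4 lay between 0 and 1.5-fold in each of 34 refits that left out 1 library and in all 7 other settings that gave an interval.

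The remaining genes of this group were near or above these values. Urb1, a ribosome biogenesis factor, rose by 0.42 (SE 0.090), Paxbp1, a partner of PAX factors, by 0.48 (SE 0.071), and Btg3, a member of the antiproliferative BTG family, by 0.60 (SE 0.11). Urb1 varied most between comparisons. It was 0.05 in 5xFAD-Dp16 against 5xFAD with sham, where the levels were 6.56, 6.16, 7.15 and 7.07 CPM against 7.36, 8.16 and 5.98 CPM and overlapped. With tofacitinib it was 0.85 (adjusted p = 0.0133), with 4.37, 5.62, 6.39, 4.12 and 4.72 CPM against 7.59, 11.6, 6.68 and 10.6 CPM, and this call was kept in 6 of 9 refits. The segment effect on Urb1 differed between tofacitinib and sham by 0.43 (unadjusted p = 0.0220, adjusted p = 0.754), which did not pass.

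**Figure D3:**
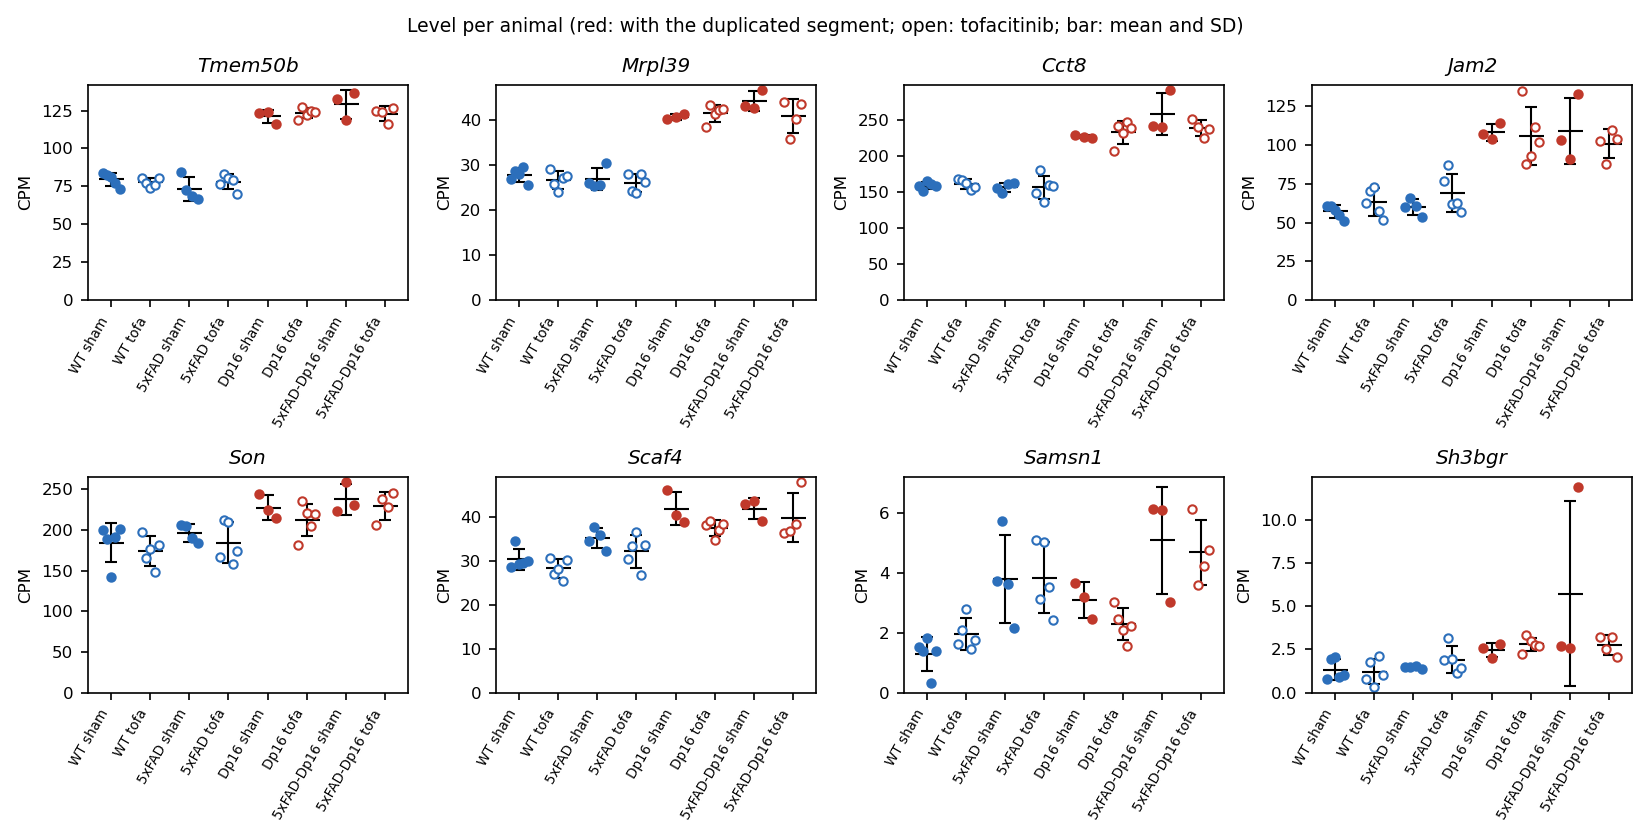
CPM of 8 genes in every animal by group (x axis), blue without and red with the segment copy, open circles for tofacitinib, with the group mean and SD as bars. Tmem50b, Mrpl39, Cct8 and Jam2 show no overlap between red and blue, Son and Scaf4 do, Samsn1 is also high in 5xFAD groups, and 1 of the 5xFAD-Dp16 sham animals is at 11.9 CPM of Sh3bgr.

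The 3 mitochondrial genes rose. Mrpl39, a protein of the large mitochondrial ribosomal subunit, was at 26.9, 28.7, 27.9, 29.4 and 25.6 CPM in WT sham and 40.0, 40.5 and 41.2 CPM in Dp16 sham animals, and no animal without the copy exceeded 30.5 CPM. Its mean log2 fold change was 0.64 (SE 0.041, adjusted p = 2.79e-12). Dnajc28, a DnaJ-family protein of mitochondria, rose by 0.68 (SE 0.052), and both passed in all 4 comparisons. Mrps6 of the small subunit rose by 0.52 (SE 0.11, adjusted p = 0.0113), with 10 of 15 animals above the highest without the copy. Without the 3 libraries low in hippocampal markers Mrps6 was at 0.46 and did not pass (adjusted p = 0.065).

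In metabolism, transport and glycosylation 5 of 6 genes rose. Gart, the trifunctional enzyme of de novo purine synthesis (chromosome 16, 91621186 to 91646952), went from a median of 30.8 CPM (24.6 to 37.4) to 46.0 CPM (37.8 to 53.5) without overlap and rose by 0.53 (SE 0.057, adjusted p = 1.09e-07). By the GENCODE annotation its start lies 554 bases from that of Son on the opposite strand, whose log2 fold change was 0.28. Cryzl1, a quinone oxidoreductase-like protein, rose by 0.58 (SE 0.073), and Pigp, a subunit of the enzyme that starts GPI anchors, by 0.68 (SE 0.090). B3galt5, a galactosyltransferase of glycolipids, rose by 0.58 (SE 0.084). Hlcs, which attaches biotin to carboxylases, rose by 0.47 (SE 0.099).

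The group's remaining gene, Slc5a3, the sodium-coupled myo-inositol transporter induced by osmotic stress, had a log2 fold change of 0.41 (SE 0.11, adjusted p = 0.063). It ran from 19.6 to 41.2 CPM (median 23.5) without the copy and from 23.2 to 54.1 CPM (median 34.5) with it, so the ranges overlapped widely. Hlcs was at 0.73 in 5xFAD-Dp16 against 5xFAD with sham and 0.07 with tofacitinib. The values with tofacitinib were 11.5, 20.03, 15.1, 11.6 and 9.70 CPM against 12.1, 14.9, 13.4 and 16.8 CPM. The highest of these, 20.03 CPM, and the highest with the copy, 27.3 CPM, both came from libraries low in hippocampal markers. Without those 3 libraries the values of Hlcs were 0.40 with sham and 0.26 with tofacitinib, and the mean effect was 0.45 (adjusted p = 0.000904).

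Of 4 methyltransferase, replication and centromere genes 3 rose. These were N6amt1, a methyltransferase of translation factor eRF1 (0.64, SE 0.083), Donson, a replication fork protein (0.68, SE 0.11), and Mis18a, which takes part in loading CENP-A (0.71, SE 0.17). The remaining gene, Setd4, a SET-domain methyltransferase, was at 0.432 to 2.89 CPM without and 1.32 to 3.90 CPM with the copy. Its mean effect of 0.36 (SE 0.21, interval -0.06 to 0.78, adjusted p = 0.493) can be told neither from 0 nor from 1.5-fold at this depth. Mis18a did not pass in 4 of 34 refits without 1 library.

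Junction, surface and matrix genes rose in 5 of 6 cases. Jam2, a junctional adhesion molecule of endothelium, was at 60.5, 60.6, 58.3, 55.1 and 51.3 CPM in WT sham against 107, 104 and 114 CPM in Dp16 sham animals. It rose by 0.76 (SE 0.067, adjusted p = 1.78e-09), 1.69-fold with an interval of 1.54 to 1.86. The levels of 8 endothelial markers lay between 4.92 and 5.61 log2 CPM in all animals, and none of the 8 was called (median 0.02 in the mean effect). Cxadr, the coxsackievirus and adenovirus receptor of cell junctions, rose by 0.81 (SE 0.10), Cyyr1, a membrane protein, by 0.62 (SE 0.094), and Eva1c, a surface protein that binds Slit ligands, by 0.70 (SE 0.17). Eva1c did not pass without the 3 libraries (0.54, adjusted p = 0.117).

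Both matrix proteases of the ADAMTS family were uneven across comparisons. Adamts1, which cleaves lecticans, rose by 0.64 (SE 0.12, adjusted p = 0.00177). With sham it was at 22.3, 18.2, 13.8, 14.6 and 20.3 CPM in WT and 35.7, 38.95 and 30.1 CPM in Dp16 animals. In the 5xFAD background the ranges overlapped, with 31.8, 28.5, 22.9 and 20.6 CPM in 5xFAD and 31.2, 26.7 and 31.0 CPM in 5xFAD-Dp16 animals. The segment effect was smaller by 0.78 (SE 0.23) with the 5xFAD transgenes than without, which had an unadjusted p of 0.00219 and did not pass over all genes (adjusted p = 0.942).

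Adamts5, the main aggrecanase of cartilage, had a mean effect of 0.59 (SE 0.21, adjusted p = 0.186) and was the lowest of the 39 per length at 0.18 RPKM in WT sham animals. It was at 2.38, 2.07, 1.79 and 2.54 CPM in 5xFAD and 2.07, 1.91 and 10.5 CPM in 5xFAD-Dp16 sham animals, so a single animal carried the group's difference of 1.13. Without the 3 libraries, of which that animal is 1, the difference was -0.49 and the mean effect 0.21 (adjusted p = 0.655).

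Among kinases, adaptors and other genes 6 of 8 rose, and this group held the widest range, 0.47 to 1.16. Tmem50b, a membrane protein of the endoplasmic reticulum and Golgi (chromosome 16, 91574503 to 91597800), had the smallest p of the 39. Its level was 83.7, 82.8, 81.3, 77.5 and 73.2 CPM in WT sham and 123, 124 and 116 CPM in Dp16 sham animals, and no value with the copy fell below 116 CPM. It rose by 0.67 (SE 0.034, adjusted p = 8.55e-15), 1.60-fold with an interval of 1.52 to 1.67. D16Ertd472e (chromosome 16, 78540338 to 78576708) was at 13.4, 16.7, 14.8, 17.0 and 19.8 CPM in WT sham and 26.1, 31.4 and 30.0 CPM in Dp16 sham animals. It rose by 0.77 (SE 0.058, adjusted p = 6.56e-11), 1.70-fold with an interval of 1.57 to 1.85, and its interval lay above 1.5-fold in all 34 refits and all 7 other settings.

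Sh3bgr, a small protein with a thioredoxin-like fold known from heart and muscle, had a log2 fold change of 1.16 (SE 0.22, adjusted p = 0.00159), the highest of the 39 with all libraries but below Ripk4 without 5xFAD-Dp16 sham 4 (0.82 against 0.97) or without the 3 libraries low in hippocampal markers (0.87 against 1.24). It was at 0.768, 1.91, 2.04, 0.876 and 1.00 CPM in WT sham and 2.59, 2.01 and 2.82 CPM in Dp16 sham animals. In 5xFAD-Dp16 sham animals it was at 2.67, 2.57 and 11.9 CPM against 1.499, 1.501, 1.56 and 1.36 CPM in 5xFAD. The value of 11.9 CPM came from 5xFAD-Dp16 sham 4, a library low in hippocampal markers. Without the 3 libraries the mean effect on Sh3bgr was 0.87 (adjusted p = 0.00246), and its interval then held 1.5-fold.

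That library also held the highest values of B3galt5 (138 CPM), C2cd2 (31.8 CPM), Hlcs, Adamts5, Cyyr1, Donson and Slc5a3. The same held for Cct8 (291 CPM), Tmem50b (136 CPM), Mrpl39 (46.6 CPM) and D16Ertd472e (33.8 CPM). Among animals with the copy, it held the lowest values of Btg3, Hunk, Mis18a, N6amt1, Setd4 and Urb1. Without it alone, 1 gene in place of 6 kept an interval above 1.5-fold, D16Ertd472e at 0.75. Jam2 was then at 0.70, Tmem50b at 0.65, C2cd2 at 0.70, Cxadr at 0.76 and Sh3bgr at 0.82, all past the threshold. Of 34 refits without 1 library, the interval lay above 1.5-fold in 33 for Jam2, Tmem50b and Sh3bgr. It did so in 26 for C2cd2 and 21 for Cxadr. Without the 3 libraries low in hippocampal markers, the intervals of D16Ertd472e, Jam2, C2cd2 and Ripk4 lay above 1.5-fold. The part of tissue composition in these values was not tested.

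The remaining genes of the group were C2cd2, Rwdd2b, Hunk, Ripk4 and Samsn1. C2cd2, with a lipid-binding C2 domain, rose by 0.79 (SE 0.095), Rwdd2b, an RWD-domain protein, by 0.54 (SE 0.083), and the SNF1-related kinase Hunk by 0.51 (SE 0.13). Hunk did not pass in 14 of 34 refits without 1 library. Ripk4, a kinase of epidermal differentiation, was at most 3.54 CPM in any animal and had a log2 fold change of 1.11 (SE 0.32, adjusted p = 0.0796). It did pass without the 3 libraries, at 1.24 (adjusted p = 0.018).

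Samsn1, an adaptor of blood and immune cells with SH3 and SAM domains (chromosome 16, 75858793 to 76022281), had a mean segment effect of 0.47 (SE 0.17, adjusted p = 0.192). It rose with the 5xFAD transgenes, by 1.09 (SE 0.17, adjusted p = 7.37e-05), as 1 of the 39 past the threshold there (1.59% of all genes were called higher and 0.00571% lower). Levels with sham were 1.54, 1.40, 1.82, 0.328 and 1.38 CPM in WT and 3.72, 5.75, 3.63 and 2.15 CPM in 5xFAD animals. Dp16 sham animals had 3.66, 3.19 and 2.47 CPM and 5xFAD-Dp16 sham animals 6.15, 6.12 and 3.02 CPM.

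With tofacitinib Samsn1 was at 1.64, 2.096, 2.81, 1.45 and 1.77 CPM in WT and 5.09, 3.13, 5.03, 3.55 and 2.41 CPM in 5xFAD animals, which overlapped. Dp16 animals had 3.04, 2.48, 2.102, 1.57 and 2.23 CPM and 5xFAD-Dp16 animals 6.16, 3.59, 4.23 and 4.77 CPM. Beside this rise 6 of 8 microglia markers rose with 5xFAD (median 0.50), and 5 of 8 markers of plaque-associated microglia did (median 1.56). The microglia level was 5.12 to 5.38 log2 CPM in WT sham and 5.49 to 6.41 log2 CPM in 5xFAD sham animals. Its part in the Samsn1 result was not tested. Next in p for the 5xFAD effect were Scaf4 (0.12), Sh3bgr (0.49) and Adamts1 (0.25), with adjusted p of 0.317 to 0.449.

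No gene of the 39 showed a segment effect that depended on 5xFAD or on tofacitinib past the threshold, and none passed for tofacitinib itself. By edgeR no gene of the 17518 passed in these 3 tests either (0% called in each direction). Unadjusted p-values under 0.05 numbered 1 gene (Adamts1) for the 5xFAD dependence by edgeR and 3 for the tofacitinib dependence (D16Ertd472e at -0.31, C2cd2 at -0.49 and Urb1 at 0.43). For tofacitinib itself they numbered 5, led by Usp25 at -0.18 (unadjusted p = 0.000524, adjusted p = 0.618), with Ltn1 at -0.13, Scaf4 and D16Ertd472e at -0.12 and Pigp at 0.23. By edgeR, 844, 1142 and 1340 of the 17411 genes outside the segment had an unadjusted p under 0.05 in these 3 tests, in that order. DESeq2 called 0 of the 39 in each of the 3 tests, with 2, 3 and 4 of them at an unadjusted p under 0.05.

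Partner genes outside the segment did not rise with the 39. In 12 lists of partners, 1 of 179 tested genes passed for the mean effect, U2af2 of the splicing list, which fell by 0.13 (adjusted p = 0.0398). List medians ran from -0.05 for 12 genes of purine synthesis to 0.12 for 12 genes of the lectican matrix. The 7 other CCT subunits had a median of -0.03, with Tcp1 of smallest p at -0.06. The 47 other large-subunit genes of the mitochondrial ribosome had a median of -0.02 and the 30 of its small subunit 0.01. For 18 proteasome genes it was -0.03, and for 10 genes of ribosome-associated quality control -0.04, where Pelo, a ribosome rescue factor, was at -0.22 (adjusted p = 0.123). In Dp16 against WT with sham, 1 of these 10 genes was called lower (0.0628% of all genes were). No other partner was called in the single comparisons. The other medians were 0.07 for 5 GPI-GlcNAc transferase genes, 0.01 for 8 biotin-dependent carboxylase genes, -0.02 for 3 CENP-A loading genes, -0.03 for 22 splicing genes and 0.01 for 5 inositol genes.

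For genes with a partner list, the level was also set against the mean of the partners within the same animal, in log2 CPM. As the list medians above were near 0, these differences largely repeat each gene's own segment effect and are not a separate result. Cct8 stood 0.72 ± 0.08 above the 7 other CCT genes in animals with the copy (SD, n = 15) and 0.11 ± 0.08 in those without (n = 19), and all 15 were above the highest of the 19. Mrpl39 was at 0.52 ± 0.15 against -0.13 ± 0.14, Gart at 0.40 ± 0.14 against -0.18 ± 0.16 and Ltn1 at 0.37 ± 0.11 against -0.22 ± 0.15, each with all 15 animals above the 19. For Psmg1 (-1.50 ± 0.18 against -2.18 ± 0.22), Pigp (0.23 ± 0.24 against -0.42 ± 0.23) and Son (1.60 ± 0.08 against 1.28 ± 0.14) 14 of 15 were. Mrps6 and Slc5a3 had 8, Hlcs 7, Adamts5 6 and Mis18a 1 of 15.

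**Figure D4:**
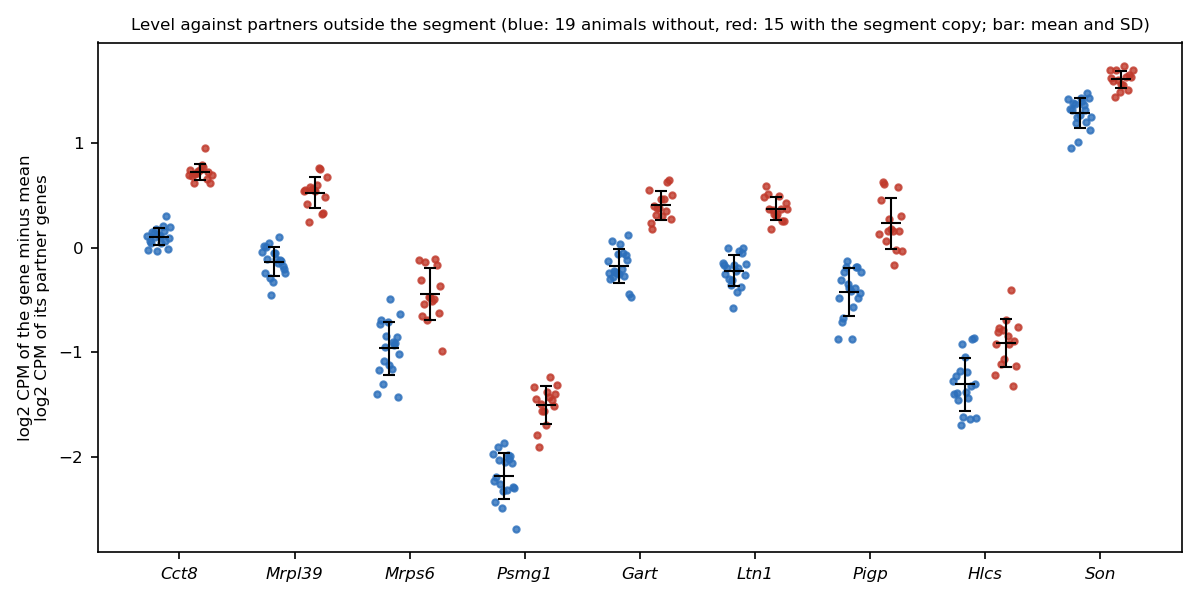
log2 CPM of 9 genes minus the mean log2 CPM of their partner genes outside the segment, per animal, blue for 19 animals without and red for 15 with the segment copy, with mean and SD. Red and blue do not overlap for Cct8, Mrpl39, Gart and Ltn1, and overlap most for Hlcs and Mrps6.

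The errors were also read by abundance. Of the 30 genes at 10 CPM or more, 29 rose, between 0.28 and 0.81, with SE of 0.034 to 0.13. Of the 9 below 10 CPM, 5 rose, and values ran from 0.36 to 1.16 with SE of 0.090 to 0.32, so the ranges of SE overlapped. Per length in WT sham animals, Ttc3 (76.3 RPKM), Cct8 (66.1), Tmem50b (33.9) and Son (16.5) led, and Mrps6 (16.5) and Cryzl1 (16.4) did not differ from Son beyond their spread. Adamts5 (0.18) and Ripk4 (0.20) were lowest, followed by Samsn1 (0.68). These abundant genes included one with an interval below 1.5-fold (Son) and one above it (Tmem50b).

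Position in the segment was also described. Cut into 3 parts of equal length, the segment held 6 of the genes in its first part with a median of 0.62, 12 in the middle with 0.59 and 21 in the last with 0.58. The other segment genes had medians of 0.38, 0.56 and 0.54 in the same parts. Neighbours could differ: Son (0.28) lies between Gart (0.53) and Donson (0.68).

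**Figure D5:**
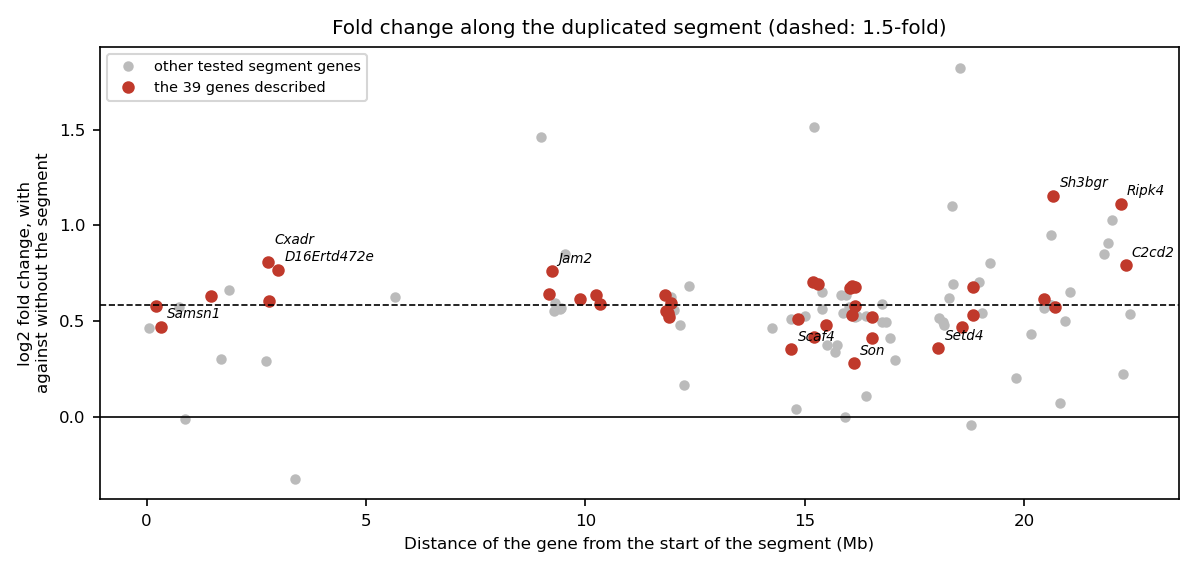
Mean log2 fold change (y axis) against distance from the start of the segment in Mb (x axis), red for the 39 genes and grey for the 68 other tested segment genes, with 1.5-fold as the dashed line. The red points lie between 0.28 (Son) and 1.16 (Sh3bgr) along the whole segment, while some grey points lie at or below 0.

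Some of these genes overlap others in exons, and no source used here says how the counting treated strand. Pigp shares 326 exonic bases (16.4% of its exons) with the far more abundant Ttc3 on the opposite strand, and Btg3 shares 695 bases (17.3%) with Cxadr. Cct8 and Usp16 share 192 bases, which are 6.22% of Cct8 and 2.03% of Usp16, and Donson shares 103 bases with Son and 287 with Atp5o. Gart (1014 bases with an antisense gene), Paxbp1 (1142 bases) and Mrps6 are affected too. Mrps6 shares 305 bases (19.9% of its exons) with the protein-coding Gm49711 and 159 bases (10.4%) with Slc5a3, both on the same strand. Values of these genes are uncertain to that extent. Son shares 0.691% of its exons, and Scaf4 shares none.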

How the data were processed

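Poly(A) RNA of hippocampus was sequenced from 34 mice. The deposited counts are whole reads per gene, and per the submitters' processing notes the tools included bcl2fastq, FastQC 0.11.5, HISAT2 2.1.0, SAMtools 1.5 and HTSeq 0.6.1 with the GRCm38 build. No source used here states the strand setting. The deposited RPKM values, which the authors made, equal counts per total and gene length in 12463 genes checked and were used for levels per length only.

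Counts were fitted with edgeR 4.0.16 (R 4.3.3) by quasi-likelihood, with TMM scaling, a filter on counts under 10, the 8 group means and sex. P-values were adjusted by Benjamini-Hochberg over 17518 genes with a threshold of 0.05. CPM are TMM-scaled, and log2 CPM used a prior count of 2. The script was tested on simulated data. Depth was 14.9 to 21.1 M counts per library, and counts of the 39 genes were 1 to 28030 per library. Positions came from a GENCODE annotation of the same build and promoters from RefSeq.

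All 39 genes are named. Of each partner list, genes past the threshold in the mean effect are named, or else the one of smallest p where named. The genes, the partner and marker lists and the library exclusions were chosen with earlier results of these data known. Equal replicate numbers were not taken as pairs. Alternatives were other scalings, no filter, no sex term, a replicate block, the compared groups alone, DESeq2 1.42.0, and leaving out libraries singly or by markers. The design text names more sham 5xFAD-Dp16 and tofacitinib 5xFAD animals than were analysed here.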

Additional observations from a re-analysis of the deposited data

Results flagged for a closer look

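Dixon's criterion was applied to each of the 39 genes in each group of 4 or 5 animals, which made 234 sets. In 15 of them a value stood apart from the rest of its group, where chance gives about 11.7 (1 in 20). Levels are in CPM. In WT sham animals Usp16 was 16.7 in animal 1 (others 14.2 to 14.8), Scaf4 34.6 in animal 2 (others 28.6 to 30.0) and Son 142 in animal 3 (others 188 to 202). In 5xFAD sham animals Hspa13 was 51.8 (others 43.7 to 43.9) and Btg3 5.84 (others 8.48 to 8.88) in animal 1. Cxadr was 6.52 (others 9.11 to 9.56) and Mis18a 2.59 (others 4.03 to 4.18) in animal 2. B3galt5 was 46.5 in animal 3 (others 59.999 to 61.9), and Mrpl39 was 30.5 in animal 4 (others 25.3 to 26.0).

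In 5xFAD tofacitinib animals Hspa13 was 43.8 (others 48.1 to 49.5) and Cxadr 6.39 (others 9.60 to 10.7) in animal 4. B3galt5 was 79.1 in animal 2 (others 53.1 to 60.2), 1 of the 3 libraries low in hippocampal markers. In Dp16 tofacitinib animal 1 Cryzl1 was 91.5 (others 68.4 to 71.8) and Pigp 26.2 (others 15.2 to 17.5). Pigp was 26.3 in 5xFAD-Dp16 tofacitinib animal 1 (others 15.1 to 16.4), the library with raised thalamic and striatal markers.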

How the results depend on the processing

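The rise of the 39 genes in the mean effect was called for 34, and for 32 to 36 when single libraries were left out. Without the low-count filter the count in 5xFAD-Dp16 against 5xFAD with sham was 23, and with the compared groups alone it was 0 there and 0 with tofacitinib. Leaving out single libraries gave 9 to 13 genes in Dp16 against WT with sham, 8 to 17 in 5xFAD-Dp16 against 5xFAD with sham, and a median of 0.52 to 0.61 in Dp16 against WT with tofacitinib. It gave 2 to 4 intervals below 1.5-fold, 1 to 7 above it and 0 to 2 holding 0. Intervals holding 0 numbered 0 with no sex term and 2 without the 3 libraries or without 4 libraries, the latter chosen after seeing the data. Without the filter 1 gene was lower for the 5xFAD dependence and 2 were higher with 5xFAD.

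The direction reversed for 4 genes in single comparisons. Adamts5 in Dp16 against WT with tofacitinib was -0.15 to 0.22 without single libraries, and in 5xFAD-Dp16 against 5xFAD with sham it was -0.49 without the 3 libraries, -0.46 without the 4 and -0.50 to 1.53 without single libraries (lowest without 5xFAD-Dp16 sham 4). Urb1 in the latter comparison was -0.033 to 0.17 without single libraries (lowest without 5xFAD-Dp16 sham 2). With tofacitinib Setd4 was -0.022 without the 3 libraries, -0.0034 without the 4 and -0.12 to 0.32 without single libraries, and Hlcs was -0.029 to 0.28 without single libraries. The cause was not tested.

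The labels state no link between animals of equal replicate number, though such animals often share their sex. With deviations from group means not adjusted for sex, 4 of 14 same-numbered pairs were correlated above 0.1 (range -0.20 to 0.26). With the replicate block 14, 15, 11, 11 and, in the mean effect, 31 genes were called, and Adamts5 was -0.049 in Dp16 against WT with tofacitinib, Urb1 -0.020 in 5xFAD-Dp16 against 5xFAD with sham and Hlcs -0.058 with tofacitinib. Calls over all genes moved most with no filter (237, 214, 1054, 273 and 705 against 54, 47, 47, 38 and 242) and DESeq2 (94, 68, 115, 53 and 415). The largest SE (0.32) was among the 9 genes under 10 CPM.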
